A study of Mus musculus with 6 samples.

Results

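The genes described here are 10 regulators of the multiciliated cell fate, picked by name from the 18614 genes of a bulk RNA-seq table of the mouse subventricular zone (SVZ), the neural stem cell niche that lines the lateral ventricle. They are Gmnc, Mcidas, Ccno, Myb, Trp73, Foxj1, Rfx1, Rfx2, Rfx3 and Rfx4, and all 10 had a row in the table and passed the filter on low counts. The study compared 3 libraries labelled KO, from mice written Zhx2Δ/Δ, with 3 libraries labelled WT, from mice written Zhx2+/+. Zhx2 encodes a zinc finger and homeobox transcriptional repressor. The genotype tag of KO 1 names ZHX2, that of KO 2 names ZHX3 and that of KO 3 names ZHX4, while all 3 titles name ZHX2. The labels used here give no age, sex, strain or allele design. Nor do they tie each library to its own animal, and a p-value below therefore speaks of library-to-library spread, part of which may be technical.

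Multiciliated cells carry many motile cilia on their surface. In the brain these cells are the ependymal cells, which line the ventricles and border the SVZ, and the epithelial cells of the choroid plexus, which secrete cerebrospinal fluid and bear tufts of cilia. A cascade of regulators makes them: the geminin relatives Gmnc and Mcidas act at the top together with E2F factors, Trp73, Myb and Ccno act in differentiation and centriole amplification, and Foxj1 and the Rfx factors switch on the genes of the ciliary axoneme and of its transport machinery. Foxj1 stays on in mature ependymal cells, and Rfx factors bind a DNA element called the X-box.

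Libraries held between 17104704 and 17452615 estimated counts in KO-labelled and between 17037152 and 17685906 in WT samples. Zhx2 was not lost: it was at 67.1, 57.8 and 56.3 CPM (counts scaled by TMM to the library total) in KO 1 to 3, against 39.8, 40.5 and 38.2 CPM in WT 1 to 3, and the directions below therefore follow the label KO, not a loss of Zhx2 RNA. Choroid plexus markers stood apart. The summed level of a list of 20 was between 399 and 614 CPM in KO-labelled libraries, against 5527 to 23461 CPM in WT libraries. Of the 20, 20 were lower in every KO-labelled library than in every WT library, beside 8.74% of all genes. Tmem72 alone was at 0 in a KO-labelled library. This list, like the others below, was chosen with earlier results of these data known. WT 3 held 23.6% of the summed level of WT 1. The summed level of 12 striatal neuron markers was between 3849 and 4963 CPM in KO-labelled libraries, against 590, 8513 and 2462 CPM in WT 1 to 3. Dcx, which marks the migrating neuroblasts of the SVZ, was present throughout, at 34.4, 30.4 and 47.0 CPM in KO 1 to 3, against 40.4, 40.0 and 47.2 CPM in WT 1 to 3. Of 10 neuroblast markers, 1 lay lower without overlap (Cd24a, log2 fold change -0.47), beside 8.74% of all genes. Another 1 lay higher without overlap (Tubb3, 0.23), and the share of all genes that did so was not counted. Microglia markers, 10 of 10 with a positive log2 fold change, summed to between 599 and 720 CPM in KO-labelled libraries, against 486 to 581 CPM in WT libraries, and 5 were higher at an unadjusted p under 0.05 (edgeR), beside 2.68% of all genes. Of 10 astrocyte and quiescent stem cell markers, 8 were positive. At that p, 2 were higher (Aldh1l1 and Fgfr3) and 1 lower (Sox9), beside 2.68% and 6.39% of all genes. The part of these shifts in the results below was not tested. In bulk tissue, fewer cells of a type and less RNA per cell cannot be told apart.

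RefSeq promoter windows of build GRCm38.p6, from 250 bases before a start to 50 after it, were at hand for 9 of the 10 genes, as 12 windows; none was read for Foxj1. They were searched on both strands for the hexamer GTTGCC, which is the core of an Rfx site, which members of the Rfx family bind. It was present in 6 of the 12 windows, and in 12.5% of all 32851 windows. The 6 stretches, with the match in capitals (GGCAAC is the same hexamer on the other strand), are these.
Trp73, upstream start, chr4:154139856-154139885, minus strand: tccaggcgaggaGGCAACgctgcagcccag
Ccno, chr13:112987575-112987604, plus strand: gggctgcgGTTGCCACGGTGACgacagacg
Mcidas, chr13:112993661-112993690, plus strand: gggggaagccagGTTGCCaggttggttaac
Rfx1, chr8:84066825-84066854, plus strand: tgggtagcaacaGTTGCCccggtgagggaa
Rfx2, chr17:56831107-56831136, minus strand: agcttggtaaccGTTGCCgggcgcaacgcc
Rfx3, chr19:28011118-28011147, minus strand: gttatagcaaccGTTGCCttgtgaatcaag
In Ccno the capitals run on because the hexamer lies inside a full X-box, the only match to the X-box in these 12 windows; 1.53% of all windows hold one. The forkhead motif TGTTTAC was found in 1 of the 12 windows, that of Myb, against 3.65% of all, and the E2F motifs TTTCCCGC and TTTGGCGC in none of the 12. The Myb motif AACTGNC was in 2 of the 12, the internal windows of Trp73 and Rfx4, against 12.8% of all.

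Both windows of Gmnc, the gene with the largest difference among the members, held none of these motifs. Their 250 bases before the start are shown for that reason.
Gmnc, outer start, chr16:26991653-26991902, minus strand: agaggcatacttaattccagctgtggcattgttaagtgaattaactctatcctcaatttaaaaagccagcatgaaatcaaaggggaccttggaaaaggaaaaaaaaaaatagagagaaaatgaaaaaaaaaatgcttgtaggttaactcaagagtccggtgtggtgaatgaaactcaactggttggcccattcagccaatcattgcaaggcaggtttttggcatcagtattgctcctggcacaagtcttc
Gmnc, inner start, chr16:26968246-26968495, minus strand: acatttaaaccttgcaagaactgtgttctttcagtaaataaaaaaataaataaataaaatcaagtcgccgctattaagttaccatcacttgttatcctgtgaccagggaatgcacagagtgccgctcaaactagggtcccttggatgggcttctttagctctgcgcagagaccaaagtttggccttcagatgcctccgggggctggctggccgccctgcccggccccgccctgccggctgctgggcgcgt
A match or its absence describes these letters only.

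The question put to the 10 genes was whether their RNA differed between KO-labelled and WT SVZ. Gmnc, Trp73 and Foxj1, and with smaller differences Myb and Rfx3, were lower in every KO-labelled library than in every WT library. For Rfx3 this was a near tie, with KO 3 at 42.7 CPM and WT 1 at 42.9 CPM. The 95% interval of its log2 fold change ran from -1.18 to 0.14. Rfx2 was lower on average with overlapping libraries, and Mcidas, Ccno, Rfx1 and Rfx4 overlapped with fitted differences close to 0 or with wide intervals. Of the 10, 7 had a negative log2 fold change (median of the 10, -0.49), against 46.6% of all 15126 genes tested (median 0.02). The 5 without overlap stand against 8.74% of all genes that lay lower without overlap. The 10 were chosen with earlier results of these data known, so these shares are a description and not a test.

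None of the 10 passed an adjusted p of 0.05 over all genes in edgeR's quasi-likelihood test, which called 0% of genes. At an unadjusted p under 0.05, 4 of the 10 were lower (Gmnc, Trp73, Foxj1 and Myb), where 6.39% of all genes were, and none was higher, where 2.68% of all were. DESeq2 called 3 of the 10, all lower (Gmnc, Trp73 and Foxj1), where it called 2.02% of all genes lower and 0.0397% higher; limma-voom called none. On simulated counts DESeq2 made more false calls than its threshold allows. In a test of 3 libraries against 3, the smallest exact permutation p is 0.1, and Gmnc, Trp73, Foxj1, Myb and Rfx3 each reached it (two-sided).

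**Figure D1:**
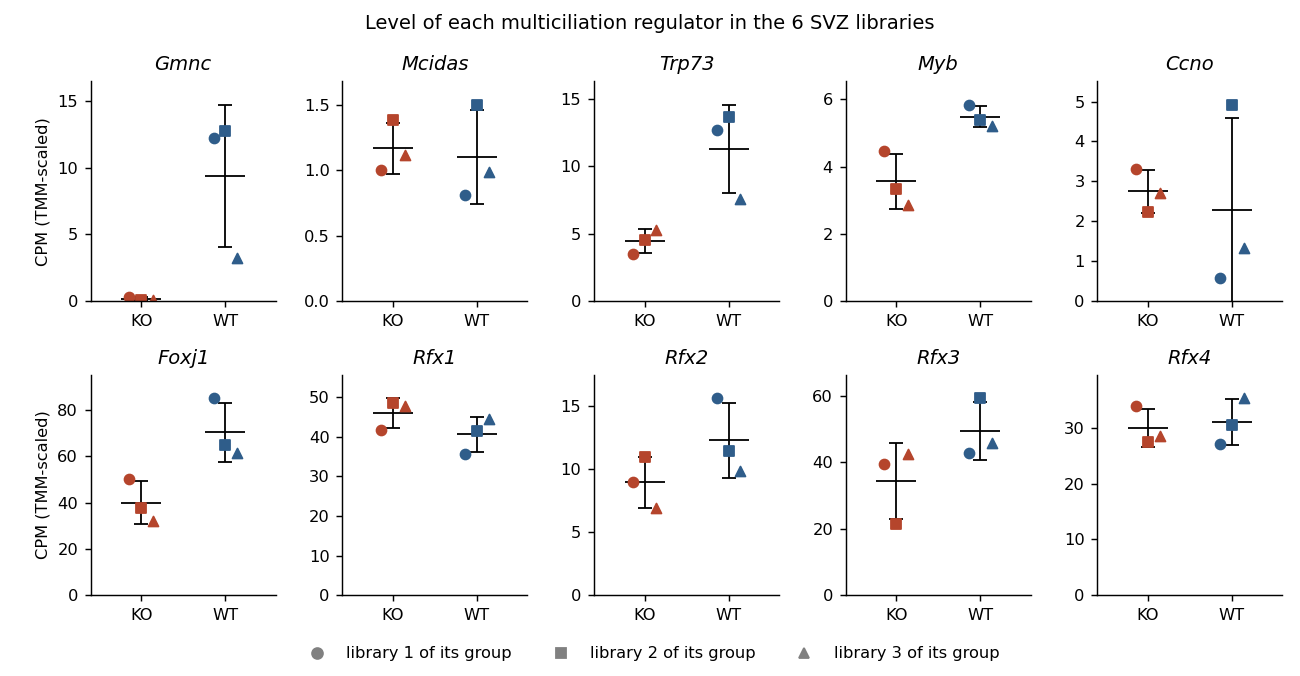
Level of each of the 10 regulators in TMM-scaled CPM (linear axis from 0, scaled per gene) in 3 KO-labelled and 3 WT libraries; points are libraries, the horizontal line is the mean and the bar 1 SD, drawn down to 0 at most. Gmnc lies between 0.115 and 0.353 CPM in KO-labelled libraries and at 3.25 CPM or above in WT, while Ccno in WT spreads from 0.595 to 4.92 CPM.

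Gmnc encodes GEMC1, the earliest known regulator of the cascade, without which mice lack multiciliated cells. The gene spans 26957235 to 26991675 on the minus strand of chromosome 16 (mm10, as for all positions below). Its estimated counts were 6, 2 and 2 in KO 1 to 3, against 225, 212 and 56 in WT 1 to 3. Every KO-labelled library was near the floor of 3 counts, and WT 3 was the lowest WT library.

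Summed over libraries, 10 counts in KO-labelled samples stood against 493 in WT, a ratio of KO to WT of 0.0207 (95% exact interval from 0.00986 to 0.0384, counting error only). The fitted log2 fold change was -5.54 (SE 0.74, 95% interval from -7.32 to -3.76), a size that rests on the 10 counts in KO-labelled libraries. It was -6.25 without KO 1, which holds 6 of the 10 KO counts, and -4.70 with KO 1 alone against WT, the ends of its range over the 13 alternatives. Gmnc ranked 20th of all genes by p (edgeR adjusted p = 0.144; DESeq2 1.72e-11). Without WT 3, edgeR called Gmnc (log2 fold change -5.95, adjusted p = 0.00625), as it did 0.895% of all genes in that fit as lower; over the 13 alternatives the adjusted p ran from 1.72e-11 to 0.827.

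The table splits Gmnc over 4 RefSeq transcripts. The one that starts at 26989974 had 0 counts in each KO-labelled library, against 146, 167 and 44.3 in WT 1 to 3, or 72.6% of the gene's WT counts; its start lies in neither window printed above. The transcript with the inner start at 26968245 had 0 counts in each KO-labelled library, against 67.6, 15.5 and 0 in WT 1 to 3. That from the outer start at 26991652 had 4.99, 0 and 2.00 counts in KO 1 to 3, against 0, 29.5 and 0 in WT 1 to 3. These splits between overlapping transcripts are estimates.

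Relative to the choroid plexus markers, Gmnc varied little over the WT libraries and more over the KO-labelled ones, where it rests on 6 counts or fewer. Its log2 CPM minus the mean of that list was -2.20, -4.60 and -3.61 in KO 1 to 3, against -3.57, -3.28 and -3.53 in WT 1 to 3. In WT 3 Gmnc held 26.7% of its level in WT 1, beside 23.6% for the summed choroid list. Measured against the mean of the motile cilium genes, Gmnc was at -4.12, -5.21 and -4.84 in KO-labelled libraries, against -0.50, 0.03 and -1.74 in WT libraries. The part of the choroid plexus content in the difference was not tested.

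**Figure D2:**
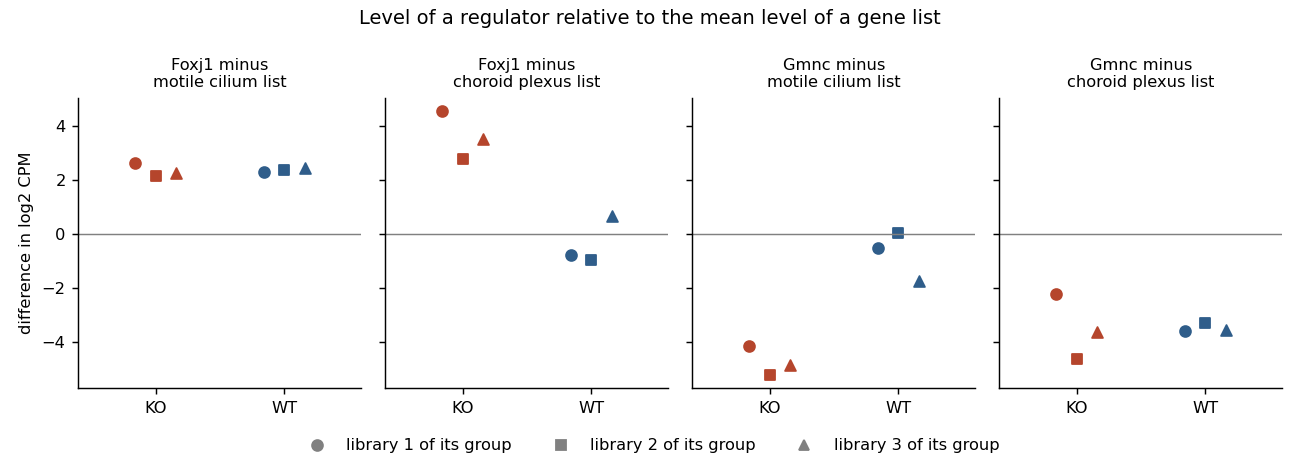
Difference in log2 CPM (vertical axis) between Foxj1 or Gmnc and the mean of the motile cilium or choroid plexus list, in each KO-labelled and WT library (points). Foxj1 stays between 2.15 and 2.62 above the motile cilium mean in all 6 libraries, and Gmnc lies between -4.60 and -2.20 of the choroid plexus mean in all 6.

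Mcidas encodes multicilin, the other geminin relative, which binds E2F4 or E2F5 to turn on centriole genes. It lies next to Ccno on chromosome 13, from 112993581 to 113000394 on the plus strand. Its counts were 17, 24 and 19 in KO 1 to 3, against 15, 25 and 17 in WT 1 to 3, and the groups overlapped. The level was 1.17 ± 0.20 CPM in KO-labelled and 1.10 ± 0.36 CPM in WT libraries (SD, n = 3). The log2 fold change was 0.09, with a 95% interval from -0.74 to 0.91, and a difference inside that interval remains possible. Its width holds library-to-library spread as well as counting error. On summed counts alone the ratio of KO to WT was 1.07 (95% exact interval from 0.734 to 1.57).

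Ccno, from 112987802 to 112990778 on the same strand, encodes cyclin O, which is needed to make the many centrioles of a multiciliated cell. Its level was 3.30, 2.25 and 2.70 CPM in KO 1 to 3, against 0.595, 4.92 and 1.33 CPM in WT 1 to 3. The WT libraries lay on both sides of all KO-labelled ones. Counts were 56, 39 and 46 in KO 1 to 3, against 11, 82 and 23 in WT 1 to 3. The log2 fold change was 0.27 (SE 0.71, 95% interval from -1.43 to 1.98; adjusted p = 0.932), and it was -0.18 without WT 1 and 1.50 without WT 2 (edgeR unadjusted p = 0.0113, adjusted p = 0.346).

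Ccno was lowest in WT 1 and highest in WT 2, the libraries with the lowest and the highest level of striatal markers. The same held for a list of markers of cycling progenitors, between 93.5 and 105 CPM in KO-labelled libraries, against 80.2, 133 and 94.5 CPM in WT 1 to 3. The part of either in Ccno was not tested. The next multiciliation gene along that chromosome, Cdc20b, had 5, 1 and 5 counts in KO 1 to 3 and 1, 0 and 3 in WT 1 to 3, and was not tested.

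Myb, a proto-oncogene that is switched on briefly in progenitors as they commit to multiciliation and that also marks cycling cells, was slightly lower. It lies on chromosome 10, from 21124930 to 21160984 on the minus strand. Its level was 4.48, 3.34 and 2.88 CPM in KO 1 to 3, against 5.85, 5.40 and 5.22 CPM in WT 1 to 3. The SD was 0.82 CPM in KO-labelled and 0.32 CPM in WT libraries, and the groups did not overlap. The log2 fold change was -0.62 (SE 0.22, adjusted p = 0.490, edgeR), on counts of 49 to 76 per KO-labelled library, against 90 to 108 per WT library.

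Trp73 encodes p73, whose full-length form activates Foxj1 and other ciliary regulators, and which is also made by choroid plexus cells and Cajal-Retzius neurons. The gene spans 154056249 to 154139875 on the minus strand of chromosome 4. It was at 3.53, 4.55 and 5.28 CPM in KO 1 to 3, against 12.7, 13.6 and 7.54 CPM in WT 1 to 3. No library of one group reached the range of the other, and WT 3 was the lowest WT library, at 59.5% of WT 1.

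The log2 fold change of Trp73 was -1.34 (SE 0.28, 95% interval from -1.99 to -0.68), or 2.53-fold lower, with an edgeR adjusted p of 0.206 and a DESeq2 adjusted p of 0.00262. Without WT 3 the edgeR adjusted p was 0.0522, its lowest among the edgeR alternatives, and without WT 1 it was 0.597. Of the 13 alternatives, DESeq2 alone called Trp73. Log2 fold changes over the 13 ran from -1.67 (KO 1 alone against WT) to -1.20. Of its 5 transcripts, the one from the internal start at 154097173 had 0, 0 and 18.1 counts in KO 1 to 3, against 36.2, 122 and 18.1 in WT 1 to 3. That from 154140208, a start in the GENCODE annotation that lies beyond the RefSeq gene span given above, had counts in WT 2 alone (13.2). The starts of the other 3, which hold 92.1% of the KO-labelled and 67.9% of the WT counts, were not read, so full-length and truncated forms were not separated.

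Foxj1, the forkhead factor that switches on the motile cilium genes, was the member with the highest level per transcript length in both groups. It lies on chromosome 11, from 116330704 to 116335499 on the minus strand. Its level was 50.1, 37.8 and 32.2 CPM in KO 1 to 3, against 85.0, 64.8 and 61.5 CPM in WT 1 to 3. All 3 KO-labelled libraries were below all WT libraries, and the gap between KO 1 and WT 3 was wider than the SD of KO-labelled libraries but narrower than that of WT libraries.

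The means were 40.0 ± 9.15 CPM in KO-labelled and 70.4 ± 12.7 CPM in WT libraries (SD, n = 3). The log2 fold change was -0.82 (SE 0.20, 95% interval from -1.29 to -0.34), or 1.76-fold lower. It did not pass in edgeR (adjusted p = 0.287) and did in DESeq2 (adjusted p = 0.0267); over the 13 alternatives the adjusted p ran from 0.0267 to 0.827. KO 1 alone against WT gave -0.49. A single RefSeq transcript held 95.6% of the Foxj1 counts in KO-labelled and 91.9% in WT libraries.

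Foxj1 and the motile cilium genes differed between the groups by nearly the same amount. Its log2 CPM minus the mean of 35 motile cilium genes was 2.62, 2.15 and 2.27 in KO 1 to 3, against 2.29, 2.36 and 2.45 in WT 1 to 3, a difference of means of -0.02. The same difference to the choroid plexus list was 4.54, 2.75 and 3.50 in KO-labelled libraries, against -0.78, -0.94 and 0.67 in WT libraries. In WT 3, with 23.6% of the choroid plexus level of WT 1, Foxj1 was at 72.4% and the summed motile cilium genes at 67.8% of WT 1. The summed choroid plexus list was at 18416 CPM in WT 2, against 23461 CPM in WT 1. In the same 2 libraries Foxj1 was at 64.8 and 85.0 CPM, and the summed motile cilium genes at 525 and 723 CPM. The part of the choroid plexus, whose cells carry motile cilia too, was not tested.

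**Figure D3:**
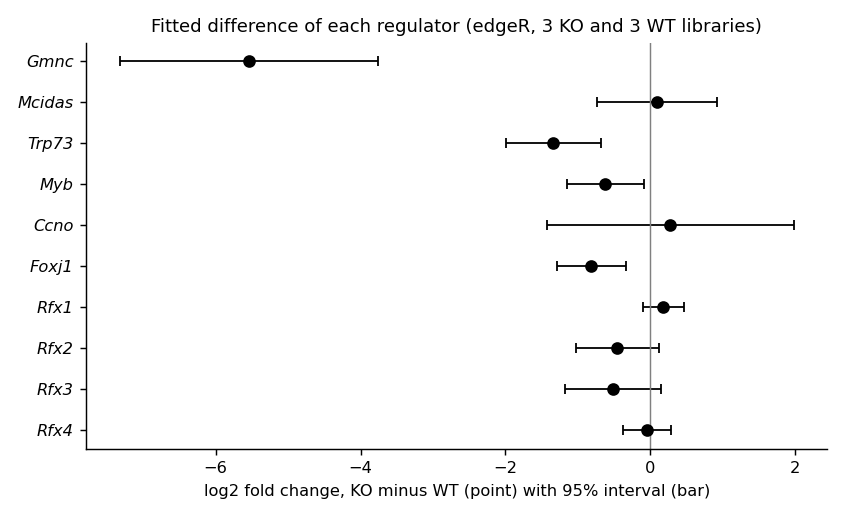
Fitted log2 fold change of each regulator, KO minus WT (points; horizontal axis), with its 95% interval (bars) from edgeR on 3 KO-labelled and 3 WT libraries. The intervals of Gmnc, Trp73, Foxj1 and Myb lie below 0, before adjustment over genes, and that of Ccno runs from -1.43 to 1.98.

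The Rfx factors are winged-helix proteins that bind the X-box. Rfx2 and Rfx3 are closest to Rfx1 and are the members most tied to motile cilia; Rfx2 works with multicilin in Xenopus, and mice without Rfx3 develop hydrocephalus. Rfx4 acts in neural progenitors, astroglia and dorsal midline structures, and Rfx1 is expressed broadly.

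Rfx2, on chromosome 17 from 56775897 to 56831008 on the minus strand, was at 8.95, 10.9 and 6.93 CPM in KO 1 to 3, against 15.6, 11.4 and 9.86 CPM in WT 1 to 3. KO 2 lay above WT 3, so the groups overlapped. The log2 fold change was -0.46 (SE 0.24, adjusted p = 0.624), and it was -0.25 without WT 1.

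Rfx3, on chromosome 19 from 27761721 to 28014669 on the minus strand, was at 39.4, 21.3 and 42.7 CPM in KO 1 to 3, against 42.9, 59.3 and 45.9 CPM in WT 1 to 3. KO 2 was low, and KO 3 and WT 1 differed by less than 1 CPM. The log2 fold change was -0.52 (SE 0.27, 95% interval from -1.18 to 0.14; adjusted p = 0.632), and without KO 2 it was -0.27.

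Rfx3 had 10 transcripts in the table. The main one held 427, 303 and 405 counts in KO 1 to 3, against 364, 507 and 287 in WT 1 to 3. A non-coding model held 164, 0 and 242 counts in KO 1 to 3, against 10.4, 72.9 and 161 in WT 1 to 3. The transcript that starts at 27982948 was at 0 in each KO-labelled library, against 79.8, 113 and 14.3 counts in WT 1 to 3. That from the start at 28011140 had 56.2, 25.0 and 28.0 counts in KO 1 to 3, against 0, 236 and 160 in WT 1 to 3. As for Gmnc, the splits between overlapping transcripts are estimates.

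Rfx1 and Rfx4 showed no separation. Rfx1, on chromosome 8 from 84063564 to 84097001 on the plus strand, was at 41.6, 48.4 and 47.7 CPM in KO 1 to 3, against 35.7, 41.5 and 44.6 CPM in WT 1 to 3 (log2 fold change 0.18, 95% interval from -0.11 to 0.47). Rfx4, on chromosome 10 from 84756036 to 84906538 on the plus strand, was at 33.9, 27.5 and 28.5 CPM in KO 1 to 3, against 27.1, 30.6 and 35.3 CPM in WT 1 to 3. Its log2 fold change was -0.05, with a 95% interval from -0.38 to 0.29. The intervals of Rfx1 and Rfx4 were the narrowest among the 10 members. The Rfx4 transcript from the outer start at 84756062 had 236, 191 and 175.5 counts in KO 1 to 3, against 214, 248.5 and 407 in WT 1 to 3, with WT 3 the highest. That from the inner start at 84838148 had 14.3, 63.9 and 87.9 counts in KO 1 to 3, against 0, 98.4 and 0 in WT 1 to 3, so that WT 2 alone had any in WT.

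Levels of different genes are compared per length, in the authors' deposited FPKM summed over the transcripts of a gene. In KO-labelled libraries the order was Foxj1 (15.3 ± 3.22 FPKM), Rfx1, Rfx4, Rfx3, Rfx2, Ccno, Trp73, Myb, Mcidas (0.550 ± 0.132) and Gmnc (0.0567 ± 0.0306; SD, n = 3). In WT libraries it was Foxj1 (27.5 ± 5.90 FPKM), Rfx1, Rfx4, Rfx3, Rfx2, Trp73, Gmnc (2.24 ± 1.20), Myb, Ccno and Mcidas (0.490 ± 0.166; SD, n = 3). The first 5 kept their order in both groups. Neighbours in the order overlapped between Rfx3 and Rfx2 and between Trp73 and Myb in KO-labelled libraries. In WT libraries Rfx1 and Rfx4 overlapped, as did each neighbouring pair from Trp73 down to Mcidas. Gmnc was in last place in KO-labelled libraries, below every library of Mcidas, and in 7th place in WT.

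The other genes of the programme were described with lists that were chosen with earlier results known, and no member of any list passed in edgeR over all genes. Of 12 tested partners of the regulators, 8 were negative in log2 fold change (median -0.12) and none had an unadjusted p under 0.05. E2f4, which binds multicilin, was at 42.9, 43.1 and 37.0 CPM in KO 1 to 3, against 34.9, 38.8 and 38.3 CPM in WT 1 to 3. Sox2, a stem cell and ependymal factor, had a log2 fold change of -0.22, Tfdp2, an E2F dimer partner, -0.24, and Jazf1 0.19.

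Relatives of the members outside the 10, among them the Rfx5 partners Rfxank and Rfxap, gave a median of 0.08 over 12 tested genes, 5 of them negative. Log2 fold changes were -0.05 for Rfx5, an activator of antigen presentation genes, -0.34 for Rfx7, -0.14 for Foxj2, -0.06 for Foxj3 and -0.35 for Mybl1. They were 0.16 for Rfxank, 0.11 for Rfxap, 0.21 for Mybl2, 0.06 for Trp53, 0.51 for Trp63, 0.23 for the cyclin gene Ccna2 and 0.29 for Ccnf. None of the 12 had an unadjusted p under 0.05, and all 12 overlapped between groups.

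Centriole amplification genes also differed little, with a median of -0.09 over 16 genes, 12 negative, and none at an unadjusted p under 0.05. Deup1, which builds the deuterosome on which centrioles multiply, was at 0.648, 0.979 and 0.998 CPM in KO 1 to 3, against 1.41, 1.44 and 0.870 CPM in WT 1 to 3. Ccdc78, another deuterosome gene, was the 1 of 16 that lay lower without overlap (-0.43, SE 0.21), beside 8.74% of all genes. Poc1a, a centriole stability gene, was the 1 that lay higher without overlap (0.50, SE 0.22). The share of all genes higher without overlap was not counted. The adjusted p values of Ccdc78 and Poc1a were 0.611 and 0.562 in edgeR.

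Motile cilium genes, the downstream end of the programme, were lower. Of 35 tested, 33 had a negative log2 fold change, with a median of -0.92; 24 were lower at an unadjusted p under 0.05 and 25 without overlap, beside 6.39% and 8.74% of all genes. DESeq2, with the excess of false calls named above, called 14 of them lower, beside 2.02% of all genes. The radial spoke and axonemal genes Cfap44 (-1.49, SE 0.18), Rsph4a (-1.14, SE 0.17) and Spag16 (-1.82, SE 0.35) had log2 fold changes past that of Foxj1. Spag16 was at 3.95, 3.17 and 3.52 CPM in KO 1 to 3, against 19.0, 10.9 and 7.66 CPM in WT 1 to 3.

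Intraflagellar transport and Bbs genes, which serve motile and primary cilia and include many Rfx targets, had a median of -0.10 over 29 genes. Of these 21 were negative, 4 were lower at an unadjusted p under 0.05 and 6 lower without overlap, beside 6.39% and 8.74% of all genes. The transport complex genes Wdr35 (-0.36, SE 0.11), Wdr19 (-0.34, SE 0.11), Ift80 (-0.44, SE 0.16) and Ift88 (-0.28, SE 0.11) had the smallest p. Among ependymal markers outside the axoneme, 8 of 13 were negative (median -0.18) and 5 positive, the largest of these at 0.18. At an unadjusted edgeR p under 0.05, 3 were lower, beside 6.39% of all genes. The same 3 lay lower without overlap, beside 8.74% of all genes. They were Mia, which encodes a secreted protein (-1.89, SE 0.37), the cadherin gene Cdhr3 (-1.01, SE 0.25) and Cd24a (-0.47, SE 0.16). DESeq2 called Mia and Cdhr3 alone, beside 2.02% of all genes called lower.

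**Figure D4:**
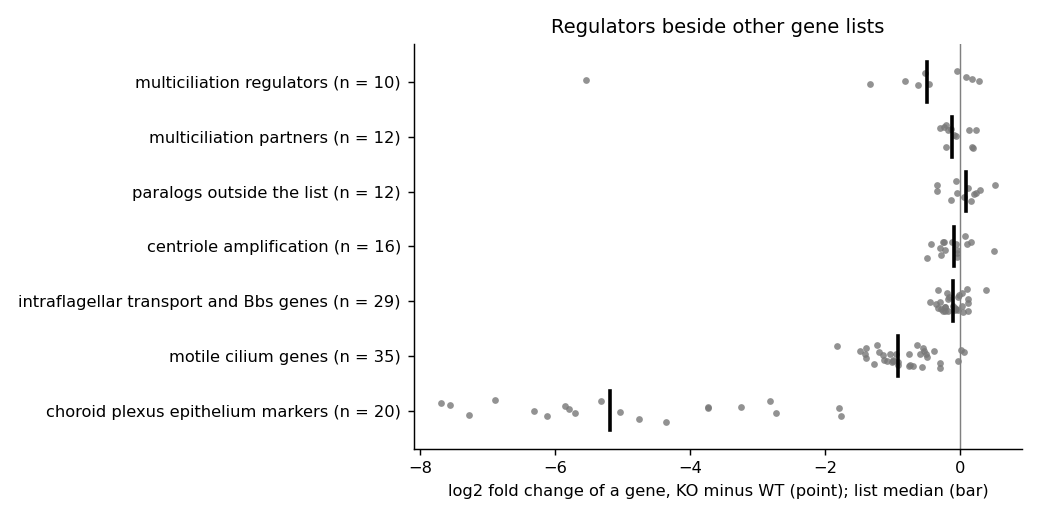
Log2 fold change, KO minus WT (horizontal axis), of each tested gene (points, spread vertically for legibility) in 7 lists, with the list median (bar). The 10 regulators have a median of -0.49 with Gmnc far to the left, motile cilium genes one of -0.92, and choroid plexus markers one of -5.18.

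Genes with the most similar profile were sought among those with a mean of at least 5 CPM, as the smallest root mean square difference between log2 CPM profiles over the 6 libraries, each centred on its own mean. For Gmnc they were Ecrg4 (0.41), Slc24a5 (0.58) and Folr1 (0.58), where the profile of Gmnc itself has a root mean square of 2.50 about its mean. Ecrg4 was at 5.07, 3.28 and 1.76 CPM in KO 1 to 3, against 118, 79.8 and 23.8 CPM in WT 1 to 3, and Folr1 is on the choroid plexus list. For Trp73 they were Ecm2 (0.10), Fzd4 (0.13) and Atp2b3 (0.15), with 0.72 for its own profile.

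For Foxj1, Dock5 was nearest (0.11, own profile 0.47), at 29.5, 23.4 and 19.2 CPM in KO 1 to 3, against 42.5, 34.0 and 35.0 CPM in WT 1 to 3. Dock5 was also nearest to Myb (0.07, own profile 0.37). Ccno was nearest to Arpp19, Acvr1c and Top2a (each 0.20, own profile 0.91), and Mcidas to Mink1, Kdm4b and Anxa6 (each 0.06, own profile 0.27). The nearest were Slc25a14 for Rfx1, Serpinh1 for Rfx2, Ncam2 for Rfx3 and Armc7 for Rfx4. With 6 libraries and 12321 or 12322 candidates per gene, such likeness describes these libraries only.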

How the data were processed

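RNA from the SVZ was sequenced as 50-base pairs, per the labels' protocols. The deposited table gives estimated counts and FPKM for 61481 RefSeq transcripts; dividing the deposited counts by the deposited FPKM leaves transcript length times library total. The submitters' processing notes name mm10 and limma 3.40.6; aligner, counter and strand setting: not given in the sources used here. Transcript counts were added up by NCBI gene number (18614 genes, 18489 named from RefSeq GRCm38.p6, the same sequence as mm10) and rounded. The 125 unnamed genes held 0.104% to 0.140% of counts and stayed in the fit. Groups come from the titles.

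The test was edgeR 4.0.16 under R 4.3.3 (TMM, filterByExpr with minimum count 10, robust quasi-likelihood F test, Benjamini-Hochberg over 15126 genes, threshold 0.05, two-sided). Log2 CPM used a prior count of 2. Alternatives used DESeq2 1.42.0, limma-voom 3.58.1, other scalings, no filter, a replicate block, KO 1 alone and single libraries left out. The fits were tested on a draw of simulated counts with 200 changed genes. In that draw the share of false calls exceeded the threshold in all 3 tools, and by far the most in DESeq2. Calls of DESeq2 are therefore given as an alternative only. An earlier draw gave larger shares in all 3 tools, so the size of the excess is uncertain. Replicates of a group differed beyond sampling noise (chi-square per degree of freedom 22.6 to 99.5). Members overlap only genes without rows of their own. The floor for an unseen gene, 3 counts, is 0.170 to 0.176 CPM. Floors and exact intervals cover counting error only. Named genes are the 10 members, up to 4 members of smallest p per list, all 12 tested relatives (beyond Rfx5 and Rfx7 added after their values were seen), and up to 3 nearest profiles; Deup1, Tmem72 and Cdc20b are list members named for their role or counts. Members and lists were chosen with earlier results of these data known. Of the 36 listed motile cilium genes, Odad2 was not matched. Transcript starts come from GENCODE M21 on GRCm38.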

Additional observations from a re-analysis of the deposited data

How the results depend on the processing

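edgeR called 0 of 15126 genes and 0 of the 10 regulators in the fit reported; DESeq2 called 311 genes (6 higher) and 3 regulators. With single libraries left out the counts in edgeR were between 0 and 137 genes and between 0 and 1 regulator, and both upper values came without WT 3 (Gmnc). The number of regulators lower at an unadjusted p under 0.05, an alternative count added after seeing the data, was 4 in the fit reported, 2 with KO 1 alone against WT and 3 or 4 under the others; 1 regulator, Ccno, was higher at that p without WT 2. The share of all genes at that p was counted in the fit reported alone (6.39% lower and 2.68% higher, edgeR). The counts under the alternatives therefore have no share of all genes beside them. Over the 13 alternatives Gmnc, Trp73, Foxj1, Myb, Rfx2 and Rfx3 kept a negative log2 fold change and Rfx1 a positive one. Those of Mcidas, Ccno and Rfx4 changed sign. With KO 1 alone Mcidas was at -0.13 and Rfx4 at 0.13. With single libraries left out Mcidas ran from -0.09 to 0.37 (-0.090 without WT 1, -0.050 without KO 2), Ccno from -0.18 to 1.50 (-0.18 without WT 1) and Rfx4 from -0.15 to 0.06 (0.056 without WT 3, 0.011 without KO 2). The cause was not tested. Where 1 library was left in a group, it was assumed to vary like the WT libraries. Same-numbered KO-labelled and WT libraries did not deviate together (correlations -0.16, -0.07 and -0.04), and different-numbered ones ran from -0.15 to 0.18. No pairing by number was seen, but so few correlations cannot exclude one. With the replicate block edgeR called 0 genes and 0 regulators, with Foxj1 at -0.82 and Gmnc at -5.50. Depth limits what can be said where a library had 25 counts or fewer. This held for Mcidas throughout, for Gmnc in KO-labelled libraries and for Ccno in WT 1 and WT 3. Depth also limits Deup1, at 0.648 to 1.44 CPM.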
